A study of Mus musculus with 4 samples.

Results

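Icam1 and Selp encode a pair of adhesion molecules by which endothelium captures leukocytes, and they are 2 of the 9114 genes in the deposited table. Both were chosen by their normalised counts being lower in the mVEGF-C than in the eGFP libraries of these same data, so that difference is described here and not tested. RNA was sequenced from lymphatic endothelial cells of the meninges of aged male C57BL/6J mice, 20 to 24 months old. Each mouse had been given 5 µL of either AAV1-CMV-mVEGF-C or AAV1-CMV-eGFP, both adeno-associated viruses, into the cisterna magna 4 weeks before. VEGF-C is the main growth factor of lymphatic vessels and eGFP, a fluorescent protein, served as the control. Both viruses used the CMV promoter, which is active in many cell types, so the vector itself does not limit expression to the sorted cells. The cells were sorted as single, DAPI-negative, CD45-negative cells that carried CD31 and podoplanin, and each of the 2 libraries per group came from the pooled meninges of 10 mice. The groups therefore compare pools and give no value for a single mouse.

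Leukocytes leave a vessel, or enter one, in steps. P-selectin, the product of Selp, is stored in the Weibel-Palade bodies of endothelial cells and brought to the surface on activation, where it binds PSGL-1 on leukocytes and lets them tether and roll. ICAM-1, the product of Icam1, is a member of the immunoglobulin superfamily that binds the leukocyte beta-2 integrins and holds rolling cells firmly. Both genes are known to be induced by inflammatory cytokines, Icam1 through NF-kB. ICAM-1 on lymphatic endothelium is also known to support the passage of dendritic cells into lymphatic vessels. P-selectin is best known from venous blood endothelium and from platelets.

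Icam1 (ENSMUSG00000037405) is a protein-coding gene on the plus strand of chromosome 9, at 21015985 to 21028817 of GRCm38, with 4360 bases of annotated exon. Selp (ENSMUSG00000026580) is a protein-coding gene on the plus strand of chromosome 1, at 164115264 to 164150026, with 4413 bases of exon. The nearest annotated protein-coding genes beyond Icam1 are its paralogues Icam4 and Icam5, which are not analysed here. Non-coding genes on the other strand overlap both members, Gm47079 at the end of Icam1 and Gm16587 and Gm16548 within Selp. Whether the counting used strand is not stated, so reads from these cannot be told apart from those of Icam1 and Selp.

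The 250 bases before the RefSeq start of each gene are shown because the 2 genes were chosen for differing in the same direction, and because cytokine induction of Icam1 is known to act through this stretch. They are from RefSeq on GRCm38.p6, plus strand, at chr9:21015690-21015939 for Icam1 and chr1:164115014-164115263 for Selp. Capitals mark the match to GGAAATTCC.
Icam1: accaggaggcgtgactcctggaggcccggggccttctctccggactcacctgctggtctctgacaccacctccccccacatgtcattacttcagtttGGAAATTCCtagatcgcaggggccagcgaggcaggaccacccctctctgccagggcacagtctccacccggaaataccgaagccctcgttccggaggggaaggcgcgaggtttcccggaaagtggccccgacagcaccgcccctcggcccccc
Selp: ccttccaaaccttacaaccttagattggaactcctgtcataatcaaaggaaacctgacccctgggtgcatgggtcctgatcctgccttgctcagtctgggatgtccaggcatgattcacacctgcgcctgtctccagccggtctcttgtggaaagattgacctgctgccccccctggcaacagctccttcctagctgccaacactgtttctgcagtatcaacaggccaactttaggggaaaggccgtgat

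A pair of NF-kB motifs was searched on both strands, with these sequences in view. In Icam1, GGAAATTCC, an NF-kB site variant known from this gene, lay 153 to 145 bases before the start. It occurs in 0.292% of the 27025 promoter windows of this length. Because the variant is known from Icam1, its match there was fixed in advance, and the share lends it no weight. The NF-kB consensus of 10 letters, found in 3.75% of windows, matched neither window, and the Selp window held no match to either motif. The 2 windows also differed in base composition, with 65.2% G and C for Icam1 and 53.6% for Selp.

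The deposited values are normalised counts, that is, reads on a gene divided by 1 scaling factor per library. Whole numbers, taken here as reads, could be recovered from them, and their sum over the 9114 rows was 25610683 to 28632461 per library. The submitters' notes name Salmon, so they may be rounded estimates and not observed reads. The libraries held markers of their labelled identity. Of 14 lymphatic endothelial markers 13 were measured, with Mmrn1 and Ccl21a the most abundant and Prox1, Lyve1 and Flt4 all present. Pdpn, the gene of the sort marker podoplanin, was lower than these, at 3053 to 4144 normalised counts. Markers of other cells were present too, and the fibroblast gene Dcn exceeded Pdpn, with group means of 14919 in eGFP and 16837 in mVEGF-C. The summed level of the 13 lymphatic markers was 531170 to 608900 normalised counts in eGFP and 572370 to 705920 in mVEGF-C libraries, so the groups overlapped. The gap between replicates was capped in this table. On log2(reads + 1) the gap within the eGFP pair never exceeded 2.83 and within the mVEGF-C pair 4.24, while the gap between an eGFP and an mVEGF-C library reached 10.69. Genes with wider gaps are not analysed here, and the effect of this cap on the SEs and p-values, which draw on the spread over many genes, was not tested.

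Icam1 was an expressed gene of middling level in the eGFP libraries and close to absent from the mVEGF-C libraries. It had 876 normalised counts in eGFP 1 and 542 in eGFP 2, against 22.4 in mVEGF-C 1 and 38.1 in mVEGF-C 2. The libraries of each group lay near each other, and the lowest eGFP library was 14.2 times the highest mVEGF-C library. The group means were 709 ± 236 and 30.3 ± 11.1 (SD, n = 2 each), a ratio of 23.4. On the log2(normalised count + 1) scale the fitted difference, mVEGF-C minus eGFP, was -4.51 with an SE of 1.28 from limma, whose SE rests on genes of similar level. From its own 2 pairs of libraries alone the SE was 0.506. In bulk RNA, fewer cells of a type and less RNA per cell cannot be told apart.

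The mVEGF-C values of Icam1 rest on few reads. They came from 21 and 41 recovered reads, with exact Poisson 95% intervals of 13.0 to 32.1 and 29.4 to 55.6, against 978 and 507 reads in the eGFP libraries (918 to 1041 and 464 to 553). These intervals cover counting error only, since reads that PCR copied from 1 molecule cannot be told apart here, and the RNA had been amplified before sequencing. Icam1 ranked 4062 and 4863 of the 9063 genes tested in the eGFP pair and 8338 and 8028 in the mVEGF-C pair. Leaving out each library in turn moved the log2 difference between -4.14 and -4.88.

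Selp was one of the more abundant genes of the eGFP libraries, and its 2 mVEGF-C libraries did not resemble each other. Its normalised counts were 3122 in eGFP 1 and 6120 in eGFP 2, against 144 in mVEGF-C 1 and 1969 in mVEGF-C 2. Both mVEGF-C libraries lay below both eGFP libraries, but mVEGF-C 2 only by a factor of 1.59 from eGFP 1. The 2 mVEGF-C libraries differed from each other by a factor of 13.7. The group means were 4621 ± 2120 and 1056 ± 1290 (SD, n = 2 each), a ratio of 4.37.

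The fitted log2 difference of Selp was -3.03 with an SE of 0.99 from limma, and its own libraries alone gave an SE of 1.94. Without mVEGF-C 1 the difference was -1.15, and without mVEGF-C 2 it was -4.91. Counting error was small beside this gap, with 135 reads in mVEGF-C 1 (exact Poisson 95% interval 113 to 160) and 2119 in mVEGF-C 2 (2030 to 2211). In rank among the 9063 genes Selp stood at 1581 and 813 in the eGFP libraries, 2513 in mVEGF-C 2 and 6633 in mVEGF-C 1. Count models, which average the libraries before taking the logarithm, gave Selp -2.10 (edgeR) and -2.13 (DESeq2) and Icam1 -4.52 and -4.55.

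**Figure D1:**
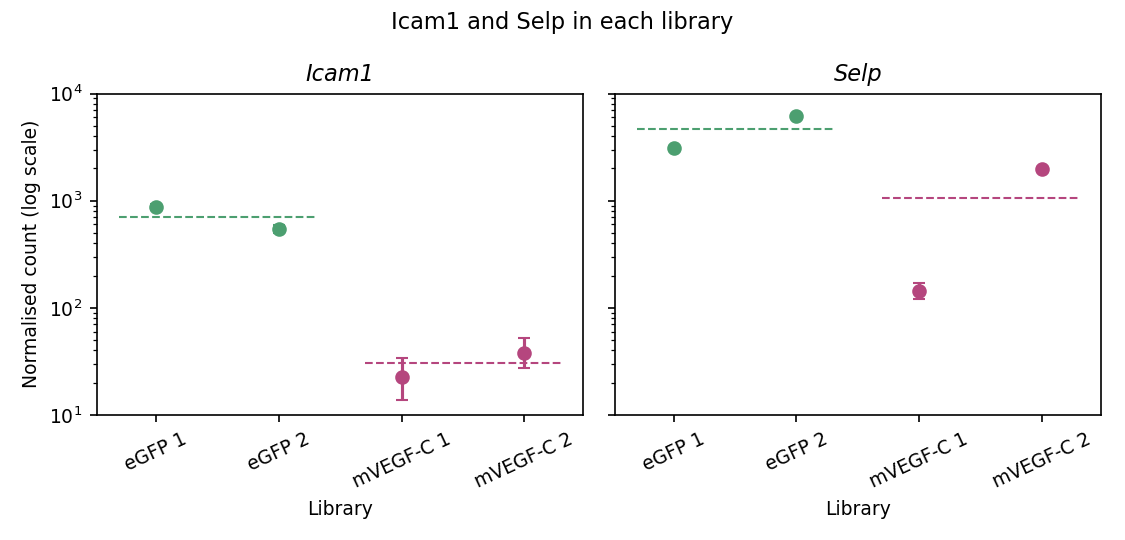
Normalised counts (log scale) of Icam1 and Selp in each of the 4 libraries, with exact Poisson 95% intervals of the recovered reads as bars (hidden by the point where narrow) and the group mean as a dashed line. Icam1 falls into 2 close pairs, while Selp is at 144 in mVEGF-C 1 and at 1969 in mVEGF-C 2.

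Set against all genes, the 2 members differed in how their libraries agreed. The gap within the mVEGF-C pair was 0.74 on the log2 scale for Icam1, and 63.3% of the genes tested had a larger one. For Selp it was 3.76, which 2.60% of genes exceeded, and in the same direction, mVEGF-C 1 below mVEGF-C 2, 94 genes did. On log2(reads + 1) the gap of Selp was 3.96, near the limit of 4.24 for this pair. Genes with wider gaps are therefore missing from these shares. Within the eGFP pair the gaps were 0.69 for Icam1 and 0.97 for Selp, with larger gaps in 61.6% and 48.5% of genes. For Icam1 the lowest eGFP library stood 3.80 above the highest mVEGF-C library on this scale. For Selp that distance was 0.66, smaller than the gap within either of its pairs.

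For both members the 2 groups did not overlap, which is what they were chosen for, and the same held in that direction for 19.8% of the 9063 genes. In size, 91 genes (1.00%) had a log2 difference at or below that of Icam1 and 310 (3.42%) at or below that of Selp. In the fifth of genes that holds Icam1, with means of 142.5 to 522, the median absolute log2 difference was 0.968. In that of Selp, with means of 1251 to 2938, it was 0.738. These shares describe the table and support nothing about the members, since the same values chose them.

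**Figure D2:**
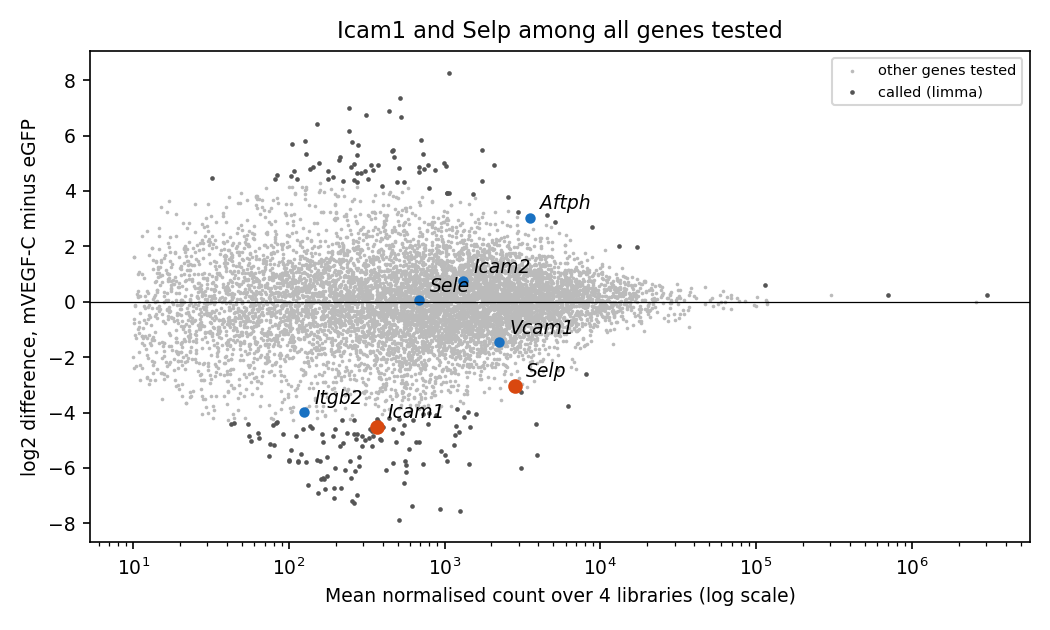
Log2 difference, mVEGF-C minus eGFP, against the mean normalised count (log scale) for the 9063 genes tested, with Icam1 and Selp in orange, other named genes in blue and genes called by limma in dark grey. Icam1 (-4.51) and Selp (-3.03) lie in the lower part of the cloud, and Sele lies at 0.05.

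The other endothelial docking receptors of the table did not pass the test, and their values did not share one direction. E-selectin, encoded by Sele (chromosome 1, 164048234 to 164057677), binds the same kind of leukocyte sugars as P-selectin and is the nearest measured gene before Selp. Its normalised counts were 848 and 521 for eGFP and 747 and 630 for mVEGF-C. Both mVEGF-C values lay between the eGFP values, and the log2 difference was 0.05 (95% interval -2.17 to 2.27; adjusted p = 0.997 in limma). With the libraries rescaled to 1 total it was -0.04.

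VCAM-1, the endothelial ligand of the leukocyte integrin alpha-4 beta-1, is encoded by Vcam1 (chromosome 3, 116109949 to 116129688). Its normalised counts were 2420 and 4184 in eGFP and 953 and 1402 in mVEGF-C libraries, so that the groups did not overlap, on the same side as Icam1 and Selp. The log2 difference was -1.46 (95% interval -3.30 to 0.38; adjusted p = 0.61 in limma). ICAM-2, a constitutive relative of ICAM-1, is encoded by Icam2 (chromosome 11, 106377656 to 106388075). It had 1463 and 574 normalised counts in eGFP and 1215 and 1970 in mVEGF-C libraries, which overlapped, with a difference of 0.75 (95% interval -1.28 to 2.79; adjusted p = 0.89 in limma). Without eGFP 2 the difference of Icam2 was 0.08.

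Per kilobase of exon, Selp was the most abundant of these 5 receptors in the eGFP libraries at 1047 ± 480 normalised counts (SD, n = 2). The length is that of all annotated exons and not of the transcripts expressed, so levels of different genes can be set side by side only roughly. Icam2 followed at 535 ± 330, Vcam1 at 372 ± 141, Sele at 235 ± 79.5 and Icam1 at 163 ± 54.1. Each neighbouring pair in that order overlapped in range. In the mVEGF-C libraries Icam2 led at 836 ± 280, ahead of Selp at 239 ± 292, Sele at 236 ± 28.4, Vcam1 at 133 ± 35.8 and Icam1 at 6.94 ± 2.54. There Selp and Sele overlapped, and the other neighbours did not, but the range of Selp also spanned that of Vcam1. Within a library the level of Selp per kilobase was 3.52 times that of Icam1 in eGFP 1, 11.2 times in eGFP 2, 6.35 times in mVEGF-C 1 and 51.1 times in mVEGF-C 2, so the 2 genes kept no fixed ratio.

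**Figure D3:**
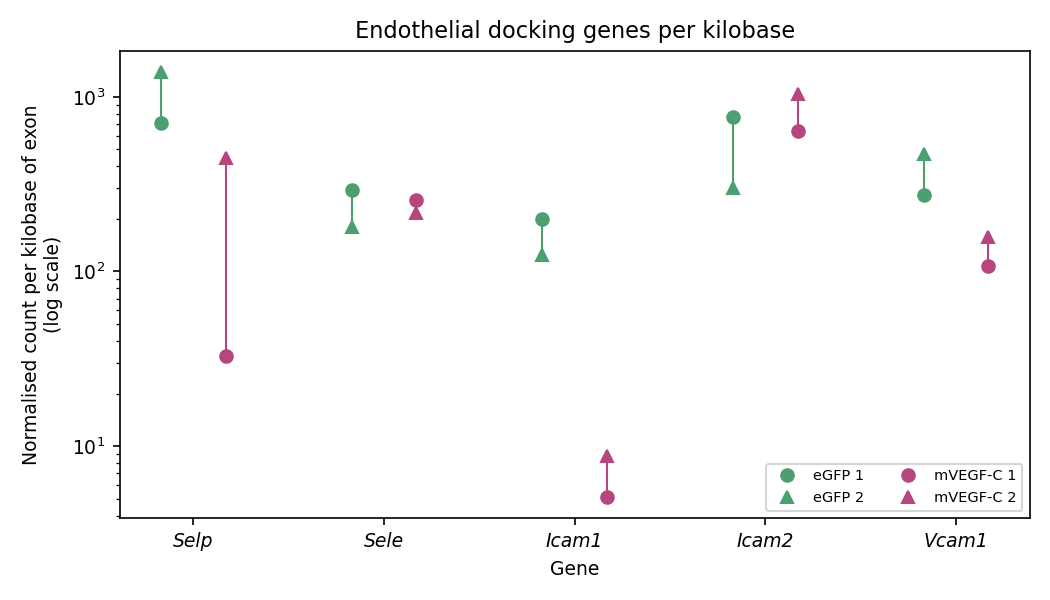
Normalised counts per kilobase of annotated exon (log scale) of 5 endothelial docking receptors, with circles for replicate 1 and triangles for replicate 2 of each group and a line joining them. The mVEGF-C libraries of Icam1 lie at 5.15 and 8.74, below every other value shown.

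The genes that surround docking were read from 10 lists, with Icam1 and Selp themselves left out: 144 different genes were tested, 78 above and 66 below 0, with a median log2 difference of 0.05 (-0.02 over all genes tested). A gene is called at an adjusted p under 0.05 in limma. Of the 144, 2 were called higher and 0 lower, 1.39% in all, against 2.14% of all genes called and 1.31% called lower. At an unadjusted p under 0.05 there were 17 (11.8%), and the share over all genes was also 11.8%. Of the 144, edgeR called 1 and DESeq2 7, against 1.61% and 6.63% of all genes. The groups did not overlap on the lower side for 24 of them (16.7%), against the 19.8% given above. The share called by limma was thus no higher in the lists than in the whole table. Of 26 genes given below or above as list ends, paralogues and neighbours, 17 had a log2 difference that moved by over 1.5 times when 1 library was left out, and 6 of these changed sign (Sele, Cd34, Lamp1, Plat, Dnmt1 and Raver1).

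The ligands of selectins and the enzymes that make their sugars gave 0 calls in limma. Of 8 genes in the selectin list 6 were above 0, with a median of 0.06, from Lamp1 at -0.08 to Cd34, a sialomucin that can present selectin ligands, at 1.11. Without mVEGF-C 2 Cd34 was at -0.28 and without mVEGF-C 1 at 2.49. None had an unadjusted p under 0.05, and edgeR and DESeq2 called 0. Of 7 glycosylation genes 3 were above 0 and 4 below. St3gal3, a sialyltransferase, had 6 and 3 normalised counts in eGFP but 225 and 14 in mVEGF-C libraries, a difference of 3.39 (limma, adjusted p = 0.183). C1galt1c1, the chaperone of the enzyme that starts core 1 O-glycans, stood at -2.54 (adjusted p = 0.369). Of these 7, 2 had an unadjusted p under 0.05, edgeR called 0, and DESeq2 called 1, St3gal3, which limma called only without mVEGF-C 2 (adjusted p = 0.0116) and which fell below the filter without mVEGF-C 1. Selplg, the gene of PSGL-1, is not analysed here.

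Among 12 other adhesion receptors of the immunoglobulin superfamily 7 were above 0, and limma and edgeR called 0, with 1 at an unadjusted p under 0.05. The lowest was Jam3, a junctional receptor that binds the leukocyte integrin Mac-1. It had 400 and 1755 normalised counts in eGFP and 122 and 142 in mVEGF-C libraries, a difference of -2.66 (limma, adjusted p = 0.321), and DESeq2 called it. The highest was Nectin2 at 1.98 (adjusted p = 0.486). Pecam1, the sort marker CD31 and itself a receptor in leukocyte transmigration, stood at 0.49 (adjusted p = 0.766).

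The integrin partners of ICAM-1 are leukocyte proteins, and transcripts of some of their chains were measured in these CD45-negative cells. Itgb2, the beta-2 chain shared by all ICAM-1-binding leukocyte integrins, had 191 and 268 normalised counts in eGFP and 4 and 38 in mVEGF-C libraries. Its difference of -3.98 was the lowest of the 14 genes in the integrin list (limma, adjusted p = 0.0793), and it was called without mVEGF-C 2 (-5.43, adjusted p = 0.0102) but stood at -2.54 without mVEGF-C 1 (0.526). Itgam, the alpha chain that pairs with it in Mac-1, had 698 and 310 against 77 and 123, a difference of -2.25 (adjusted p = 0.501). Both genes had groups that did not overlap, on the same side as Icam1. The highest of the list was Itga9, an integrin of lymphatic valves, at 1.29 (adjusted p = 0.293). Limma and edgeR called 0 of the 14, with 3 at an unadjusted p under 0.05, and DESeq2 called 2, Itgb2 and Apbb1ip.

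Inside the endothelial cell, ICAM-1 is anchored to actin by linkers of the ezrin family and others, and 19 genes of this structure were tested. Of these 12 were below 0, with a median of -0.22, and limma, edgeR and DESeq2 called 0, with 1 at an unadjusted p under 0.05. Moesin (Msn) and radixin (Rdx), abundant linkers, each stood at -0.34 (limma, adjusted p = 0.863 and 0.922), and ezrin (Ezr) at -0.36 (0.968). The extremes were Src, a kinase, at -2.69 and Vasp, an actin regulator, at 1.24 (adjusted p = 0.383 and 0.83). Leaving out 1 library moved Src between -4.04 and -1.35 and Vasp between 0.15 and 2.32.

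P-selectin shares its storage granule with von Willebrand factor, and 19 other genes of Weibel-Palade bodies were tested. Vwf had 2308 and 3370 normalised counts in eGFP and 1445 and 1706 in mVEGF-C libraries, a difference of -0.83 (limma, adjusted p = 0.847). Unlike those of Selp, its 2 mVEGF-C libraries were close. Aftph, which encodes aftiphilin, a clathrin-associated protein of vesicle traffic, was called higher. It had 1444 and 366 normalised counts in eGFP and 7683 and 4637 in mVEGF-C libraries, a log2 difference of 3.04 ± 0.92 (SE; adjusted p = 0.0462 in limma). That call was lost in edgeR (adjusted p = 0.0726), without trend (0.227), with libraries rescaled to 1 total (0.0595), with quantile normalisation (0.0618) and whenever 1 library was left out (0.0727 to 0.9995). The lowest was Plat, tissue plasminogen activator, at -1.59 (adjusted p = 0.691), which stood at 0.19 without mVEGF-C 1. In all 13 of the 19 were above 0, with a median of 0.34.

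Of the pathways that induce both genes, 32 receptors and signalling genes were tested, 20 above 0 and 12 below, with a median of 0.15. Limma called 1 of them, higher, edgeR 1 and DESeq2 2, with 4 at an unadjusted p under 0.05. The NF-kB subunits Rela and Nfkb1 stood at 0.10 and 0.09 (limma, adjusted p = 0.993 and 0.991). Rela varied within its pairs, with 2179 and 689 normalised counts in eGFP and 3071 and 559 in mVEGF-C libraries. The subunits Relb and Rel stood at -1.57 and 1.25 (limma, adjusted p = 0.716 and 0.686), and for each the groups did not overlap. The TNF receptor Tnfrsf1a had 1643 and 965 in eGFP, but 144 in mVEGF-C 1 and 1848 in mVEGF-C 2, and the IL-1 receptor Il1r1 stood at -0.27 (adjusted p = 0.759 and 0.972). The lowest was Il4ra, the IL-4 receptor chain, at -2.04 (adjusted p = 0.574).

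Of 29 other genes of inflamed endothelium 12 were tested, and 7 were above 0 and 5 below, among them Vcam1. Tnfaip3, an NF-kB target that feeds back on the pathway, stood highest, with 63 and 20 normalised counts in eGFP and 544 and 386 in mVEGF-C libraries (3.64, limma, adjusted p = 0.12). Lif, a cytokine, stood lowest, with 37 and 48 against 2 and 6 (-3.24, adjusted p = 0.213). Limma and edgeR called 0 of the 12, with 2 at an unadjusted p under 0.05, and DESeq2 called 1, Tnfaip3. Of 12 genes that restrain adhesion genes 7 were above 0, with Klf2 and Klf4, the factors of quiescent endothelium, at 0.70 and 0.21 and Mapk7 highest at 1.71 (limma, adjusted p = 0.903, 0.972 and 0.64). Tsc22d3, a glucocorticoid-induced inhibitor of NF-kB, was lowest at -3.05 (adjusted p = 0.163), was called without mVEGF-C 2 (-4.78, adjusted p = 0.0147) and stood at -1.32 without mVEGF-C 1 (0.809).

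Of 13 genes of leukocyte traffic through lymphatic vessels 5 were above 0. The chemokine Ccl21a, which guides dendritic cells into lymphatics, had 102660 to 131390 normalised counts and a difference of -0.0019 (limma, adjusted p = 0.9999). Ccl19, the other ligand of its receptor, was lowest at -3.28, with 211 and 1678 in eGFP and 16 and 221 in mVEGF-C libraries (adjusted p = 0.179). Ccl19 was called without mVEGF-C 2 (-5.13, adjusted p = 0.0142) but stood at -1.43 without mVEGF-C 1 (0.823) and at -1.79 without eGFP 2 (0.9995). Ackr3, a scavenging chemokine receptor, was highest at 2.10 (adjusted p = 0.38). In this list and in that of restraint, edgeR and DESeq2 called 0, with 2 and 1 genes at an unadjusted p under 0.05.

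**Figure D4:**
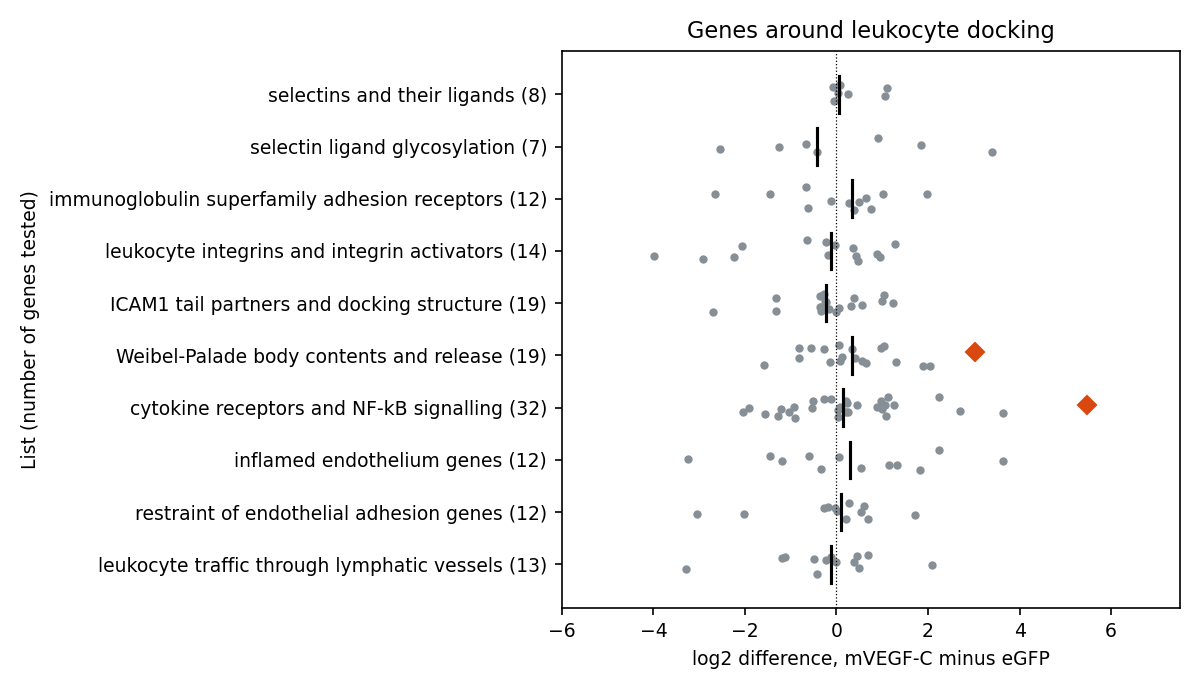
Log2 difference, mVEGF-C minus eGFP, of the genes tested in each of 10 lists around leukocyte docking, without Icam1 and Selp. Black bars are list medians, the dotted line is the median of all genes tested (-0.02) and orange diamonds are the 2 genes called by limma, both above 0, with Aftph at 3.04.

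Icam1 and Selp are also expressed by cells that a sort could carry along, so the markers of those cells were read in the same libraries. Of 16 markers of venous and other blood endothelium 12 were measured, and their summed level was 47915 and 109850 normalised counts in eGFP and 60744 and 62758 in mVEGF-C libraries. The sum was led by Ptprb, and single markers differed widely between mVEGF-C 1 and mVEGF-C 2. Cldn5 had 684 and 4652 and Lrg1 640 and 6062 normalised counts. The reverse held for Slco1a4 at 7012 and 569, Ephb4 at 7972 and 2230, Gpihbp1 at 902 and 187 and Aplnr at 756 and 45. The groups did not overlap for Vwf, which was lower, and for Plvap, which was higher. Plvap had 6226 and 5250 in eGFP and 8604 and 16377 in mVEGF-C libraries. The part of blood endothelial RNA in the values of Icam1 and Selp was not tested. Ackr1, the defining marker of venules, is not analysed here. Of 12 platelet markers 1 was measured, Rap1b, which many cells express, and Pf4 is not analysed here, so the libraries give no measure of platelets.

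Of 20 leukocyte markers 6 were measured and Ptprc, the gene of CD45, is not analysed here. Their sum was 3090 and 4666 normalised counts in eGFP and 3144 and 4836 in mVEGF-C libraries. The members of that sum went different ways. Laptm5, the most abundant, had 184 and 977 in eGFP and 1899 and 3148 in mVEGF-C libraries. Fcer1g had 1654 and 2572 against 273 and 899 (-2.05, limma, adjusted p = 0.437) and was without overlap on the side of Icam1, as was Itgb2, given above. The part of leukocyte RNA in the values of Icam1 and Selp was not tested. Of 12 mural cell markers 5 were measured, and their sum was lower in both mVEGF-C libraries, at 18064 and 13248 against 28796 and 22693 (exact two-sided permutation test, p = 0.333, the smallest that 2 against 2 libraries allow). Of these 5 genes 4 were below 0 and 1, Pdgfrb, was above it at 0.94. Rgs5, a pericyte gene, led that list, and its groups overlapped. The part of mural RNA in the values of Icam1 and Selp was not tested. Meningeal fibroblast markers (9 of 16 measured, led by Dcn) summed to 104040 and 59512 in eGFP and 109140 and 78129 in mVEGF-C libraries. The sums of endothelial (11 of 12 measured, led by Cdh5), erythrocyte (2 of 8, led by Hba-a2) and arachnoid or epithelial markers (1 of 10, Dpp4) overlapped between the groups as well. Of 59 marker genes tested 1 was called by limma (1.69%, against 2.14% of all genes), the fibroblast gene Fmod, which was higher (adjusted p = 0.00729). That call was lost in DESeq2 (0.152), without trend (0.326) and without eGFP 2 (0.831), mVEGF-C 1 (0.122) or mVEGF-C 2 (0.064), and DESeq2 called Itgb2.

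The genes with the most similar course over the 4 libraries differed between the members. Likeness was the Euclidean distance between log2 profiles centred on each gene's mean, over 8257 other genes with a mean of at least 50. For Icam1 the nearest were Nhs (distance 0.34), Gm16070 (0.34), Tmem132a (0.39), Galm (0.40) and AA467197 (0.43). For Selp they were Gm25847 (0.34), Tsc22d3 (0.41), Rnf130 (0.44), Mras (0.52) and Gm12250 (0.54). Likeness to Selp chose these genes, so their shared course is no finding. Tsc22d3, for instance, had 1512 and 2106 normalised counts in eGFP, 64.1 in mVEGF-C 1 and 713 in mVEGF-C 2. Icam1 and Selp lay 2.85 apart, which ranked Selp 457 by nearness to Icam1 and Icam1 954 by nearness to Selp.

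Measured genes beside the members on the chromosome did not pass the test. Beside Icam1 these were Dnmt1, a DNA methyltransferase, 56096 bases before it at 0.36, and Raver1, 45340 bases after it at 0.25 (limma, adjusted p = 0.961 and 0.968). Without mVEGF-C 1 they stood at -0.62 and -0.34, and without mVEGF-C 2 at 1.35 and 0.84. Beside Selp were Sele, 57586 bases before it, and the pseudogene Gm16588, 16552 bases after it at -1.10 (adjusted p = 0.855), whose reads could be shared with similar genes.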

How the data were processed

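RNA was extracted from sorted cells and amplified linearly before library construction, per the labels' protocols. Per the submitters' processing notes FastQC, Trimmomatic, Salmon and DESeq2 were used, with mm10 as the build. The sources used here do not give versions, annotation or strand setting. The deposited signal is normalised counts for 9114 rows and 4 libraries. All values of a library were whole multiples of its smallest value above 0 (100% within 0.001). Division by that value gave whole numbers, taken as reads, and median-of-ratios size factors recomputed from them equalled the deposited scaling. Column names matched 1 sample each.

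A symbol was found for 1098 of the 1146 rows that carry Ensembl identifiers. Positions and exon lengths are from GENCODE M21 on GRCm38, which is mm10, for 9008 rows (98.8%). The main fit was limma 3.58.1 in R 4.3.3 (lmFit, eBayes with trend) on log2(normalised count + 1), mVEGF-C against eGFP, two-sided. It covered 9063 genes whose mean reached 10, with Benjamini-Hochberg adjustment over all of them. It left 2 residual degrees of freedom, and the prior degrees of freedom were infinite, so a gene's own spread did not enter its SE. Alternatives were edgeR 4.0.16 (quasi-likelihood) and DESeq2 1.42.0 on the recovered reads, pseudocounts of 5 and 0.5, other filters, no trend, other scalings, a replicate block and leaving out each library. The main limma fit, edgeR and DESeq2 were run on simulated counts, and the other alternatives were not. The simulation gave every gene the same dispersion, which was not matched to the spread of these libraries. Nothing in the labels says more of the replicates than that they are separate pools.

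The members, the gene lists and the tests were chosen with earlier results of these data known. Genes named are the members, their paralogues, the called and the 2 extreme genes of each list (some items are not reported here), the nearest 5 profiles and chromosome neighbours, and the leading gene of each marker list. Others (among them Itgam, Rela, Nfkb1, Tnfrsf1a, Il1r1, Vwf, Klf2, Klf4, Ccl21a, Msn, Rdx, Ezr and Pecam1) were named for their known role after their values were seen.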

Additional observations from a re-analysis of the deposited data

How the results depend on the processing

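Icam1 and Selp kept a log2 difference below 0 under all 14 alternatives. It ran from -4.88 to -4.14 for Icam1 and from -4.91 to -1.15 for Selp, whose extremes both came from leaving out 1 mVEGF-C library. Both genes were chosen as lower and their groups do not overlap, so leaving out a library could not turn the sign. The kept sign is therefore no support for the difference. Over all genes limma called 194. It called 41 without trend, DESeq2 called 601, and leaving out each library in turn gave 5 (without eGFP 2) to 292 (without mVEGF-C 2). The cause of these changes was not tested. The other alternatives gave 146 to 207. With the replicate number as a block 203 genes were called. Same-numbered libraries deviated from their group means with a correlation of 0.000 across genes. Whether they were prepared together is not stated, and this value, from a table with capped gaps between replicates, cannot decide it. Depth limits Icam1 in the mVEGF-C libraries, where 21 and 41 reads were recovered. With 2 libraries a group, the spread of these genes between pools is known only roughly.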

Other observations

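Several genes of the docking lists had, like Selp, a far lower value in mVEGF-C 1 than in mVEGF-C 2, and were picked out after their values were seen. In Itgb3, Traf1 and Plat, unlike in Selp, the mVEGF-C 2 value was not below both eGFP libraries. In others of the lists, such as Tsc22d3 and Itgb2, given above, it was below both, as in Selp. Itgb3, the integrin beta-3 chain, had 1259 and 1033 normalised counts in the eGFP libraries, 277 in mVEGF-C 1 and 3652 in mVEGF-C 2. Traf1, an adaptor of TNF receptors, had 783 and 584, then 108 and 817, and Plat had 896 and 669, then 74 and 886. The reverse was seen too, with Birc3, an inhibitor of apoptosis, at 8323 in mVEGF-C 1 and 449 in mVEGF-C 2. In the same order Cebpd had 5066 and 296, Rela 3071 and 559, Ezr 1599 and 159 and Ltbr, a TNF family receptor, 1225 and 141. Genes of either direction were not counted, so neither direction is given as a trait of the lists. No test separates the 2 mVEGF-C libraries, since each is a single pool.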
